A study of Homo sapiens with 6 samples.

Results

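The unfolded protein response and ER chaperone genes are 37 genes that sense and answer an excess of unfolded protein in the endoplasmic reticulum (ER). They were taken by name and placed in 3 arms by function, with 13 genes in the PERK/ATF4 arm, 10 in the IRE1/XBP1 and ER-associated degradation (ERAD) arm and 14 in the ATF6 and chaperone arm. All 37 were found among the 58051 genes of the count files, and all 37 were among the 20536 genes with enough counts to be tested. The measured cells were A172, an established human glioblastoma line, made into stable lines with a lentivirus that carried either RBFOX1, an RNA-binding protein, or GFP as the control, and grown in DMEM with fetal bovine serum. RNA depleted of rRNA was sequenced from 3 GFP and 3 RBFOX1 libraries. Both groups had been exposed to virus and polybrene and both expressed a foreign protein, so that the comparison is of RBFOX1 with GFP and not with untouched cells. The cells come from a single tumour line, and no agent was given to provoke ER stress. RBFOX1 had 4, 0 and 1 counts in GFP replicates 1, 2 and 3 and 10276, 16467 and 21451 counts in RBFOX1 replicates 1, 2 and 3, as the labels give it.

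As background, PERK (EIF2AK3) is a kinase that slows translation by phosphorylating eIF2α, which favours the translation of ATF4, a factor that switches on genes of amino acid supply and, through CHOP (DDIT3), genes tied to cell death. IRE1 (ERN1) is an RNase that splices XBP1 mRNA, and the factor made from the spliced form raises genes of ERAD, the route by which misfolded proteins are drawn out of the ER and degraded. ATF6 is cleaved in the Golgi into a factor that raises the ER chaperones. The arms share targets, XBP1 and HERPUD1 among them. Kinase activity, XBP1 splicing and ATF6 cleavage cannot be read from counts per gene, and the values below are levels of mRNA only.

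Counts on genes summed to 7433414 to 23249221 per library, and 3 counts were worth 1.82 to 5.44 normalized counts. A normalized count here is the count scaled to the mean library size after TMM scaling. GFP replicate 1, the deepest library, stood apart from its group, as a chi-square comparison of counts over genes gave 8.08 and 8.23 per degree of freedom against GFP replicates 2 and 3, with 1.6 between those and 1.88 to 2.8 between RBFOX1 replicates. Without it, 5 members were higher and 24 lower, the same counts as with it, though not the same genes. PPP1R15A then no longer passed the threshold used below, and CRELD2 did. The glioblastoma markers VIM, CD44, NES and FN1 were expressed in every library, while the astroglial markers GFAP and S100B had at most 4 counts in any. Of the 10 markers in that list 9 could be tested, and 3 were higher and 5 lower in RBFOX1 cells, with log2 fold changes from -3.66 for TNC to 6.60 for CHI3L1 and a median of -0.50. SOX2 had a log2 fold change of 2.53 and OLIG2 of -0.50. The list summed to 78605 to 80104.5 normalized counts in GFP and 52418 to 53188 in RBFOX1 libraries. The epithelial, blood and endothelial marker list, of which 8 of 10 genes could be tested, summed to 52.7 to 66.2 normalized counts in GFP and 201 to 232 in RBFOX1 libraries. In that list 7 genes were higher in RBFOX1 cells, 87.5% of those tested against 23.7% of all genes tested, with a median log2 fold change of 2.59. None of the tested genes of the list averaged 50 normalized counts, and CD3E and HBB had 0 in every library. The part of either marker list in the results below was not tested. In bulk RNA of this kind, fewer cells expressing a gene and less of its RNA per cell cannot be told apart.

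Most members were lower in RBFOX1 cells, by small amounts. By edgeR's quasi-likelihood test, at a p adjusted by Benjamini-Hochberg over all genes tested and a threshold of 0.05, 24 of the 37 were lower, 5 were higher and 8 did not pass. These are 64.9% lower and 13.5% higher, where 22.9% of all genes tested were lower and 23.7% higher. In either direction 78.4% of the members passed, against 46.7% of all genes, or 63.8% of the 12012 genes that averaged at least 50 normalized counts, a level that 36 of the members reached. Of the genes at that level, 33.4% were lower and 30.4% higher. The median log2 fold change of the members was -0.23, with 0.0051 for all genes and -0.020 for those at that level. In RBFOX1 replicates 1, 2 and 3 the members had a median of -0.233, -0.212 and -0.236 on the log2 scale, taken over the GFP mean of each gene. The 3 RBFOX1 libraries lay below all GFP libraries for 25 members and above them for 4. Of all genes tested, 53.4% had groups that did not overlap, a share not taken for genes averaging at least 50 normalized counts. Only SEL1L and EDEM1 differed by 1 or more on the log2 scale, and 27 members stayed under 0.5.

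**Figure D1:**
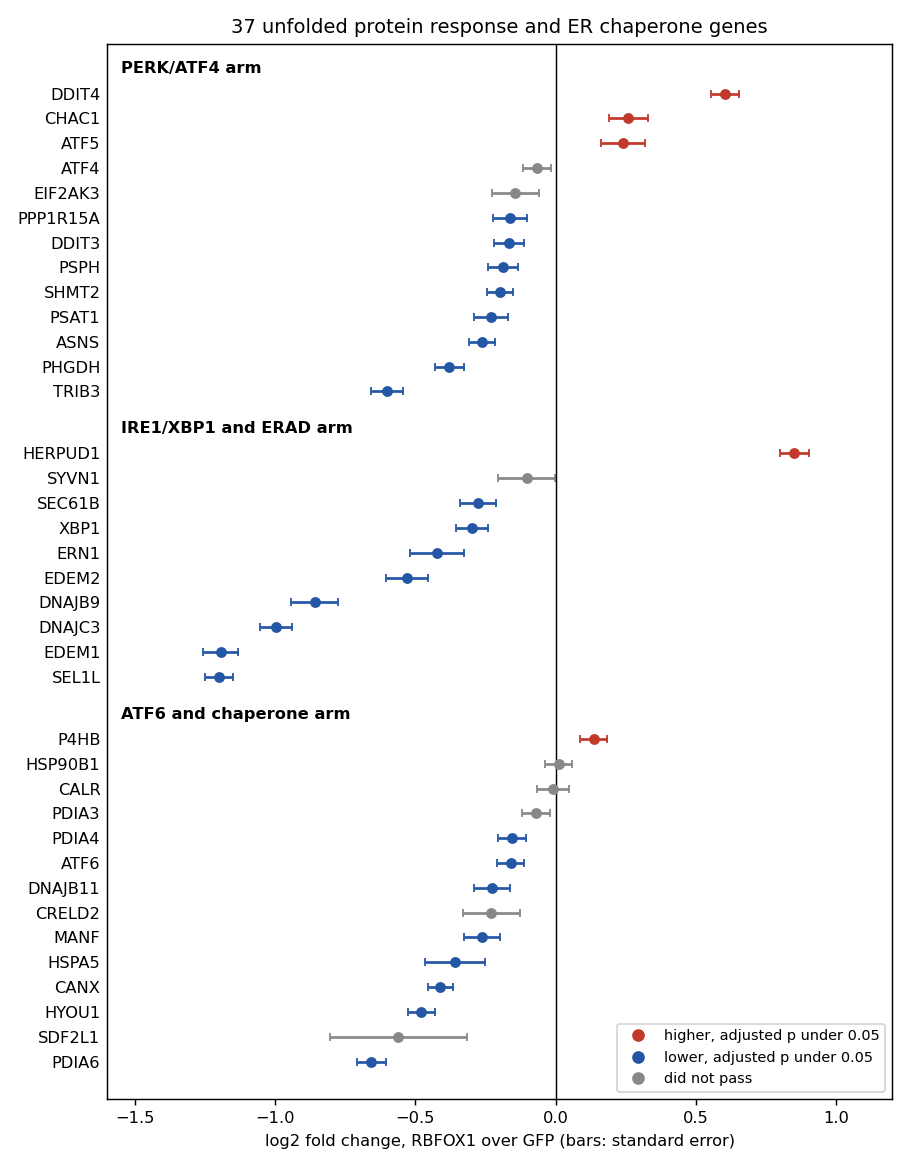
Log2 fold change of each of the 37 members, RBFOX1 over GFP, by arm (x axis, log2 scale), with bars of 1 standard error. Red points passed as higher, blue points passed as lower and grey points did not pass an adjusted p of 0.05. Values run from -1.20 for SEL1L to 0.85 for HERPUD1, and 31 of the 37 lie below 0.

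By arm, the IRE1/XBP1 and ERAD genes stood lowest. They had 8 genes lower, 1 higher and 1 that did not pass, with a median log2 fold change of -0.48. The ATF6 and chaperone genes had 8 lower, 1 higher and 5 that did not pass, with a median of -0.23. The PERK/ATF4 genes had 8 lower, 3 higher and 2 that did not pass, with a median of -0.17. In the order given, 90.0%, 64.3% and 84.6% of the genes of the arms passed in either direction. Of all genes averaging at least 50 normalized counts 63.8% passed, so the chaperone arm lay near that share. Lower genes made up 80.0%, 57.1% and 61.5% of the arms, against 33.4% of genes at that level. Without RBFOX1 replicate 3 the chaperone arm had 4 genes lower and 0 higher, and without GFP replicate 2 or RBFOX1 replicate 2 it also had 0 higher. No difference between arms was tested. Taken as a share of all gene counts, the IRE1/XBP1 and ERAD genes together made up 1083, 1118 and 1133 CPM (counts scaled to a common library total) in GFP and 808, 833 and 838 in RBFOX1 libraries. The chaperone arm, by far the most abundant, held 5152, 5527 and 5423 CPM in GFP and 4747, 4802 and 4653 in RBFOX1 libraries. For the PERK/ATF4 arm the values were 2787, 2790 and 2770 in GFP and 2600, 2477 and 2574 in RBFOX1 libraries. In each arm all RBFOX1 libraries lay below all GFP libraries.

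**Figure D2:**
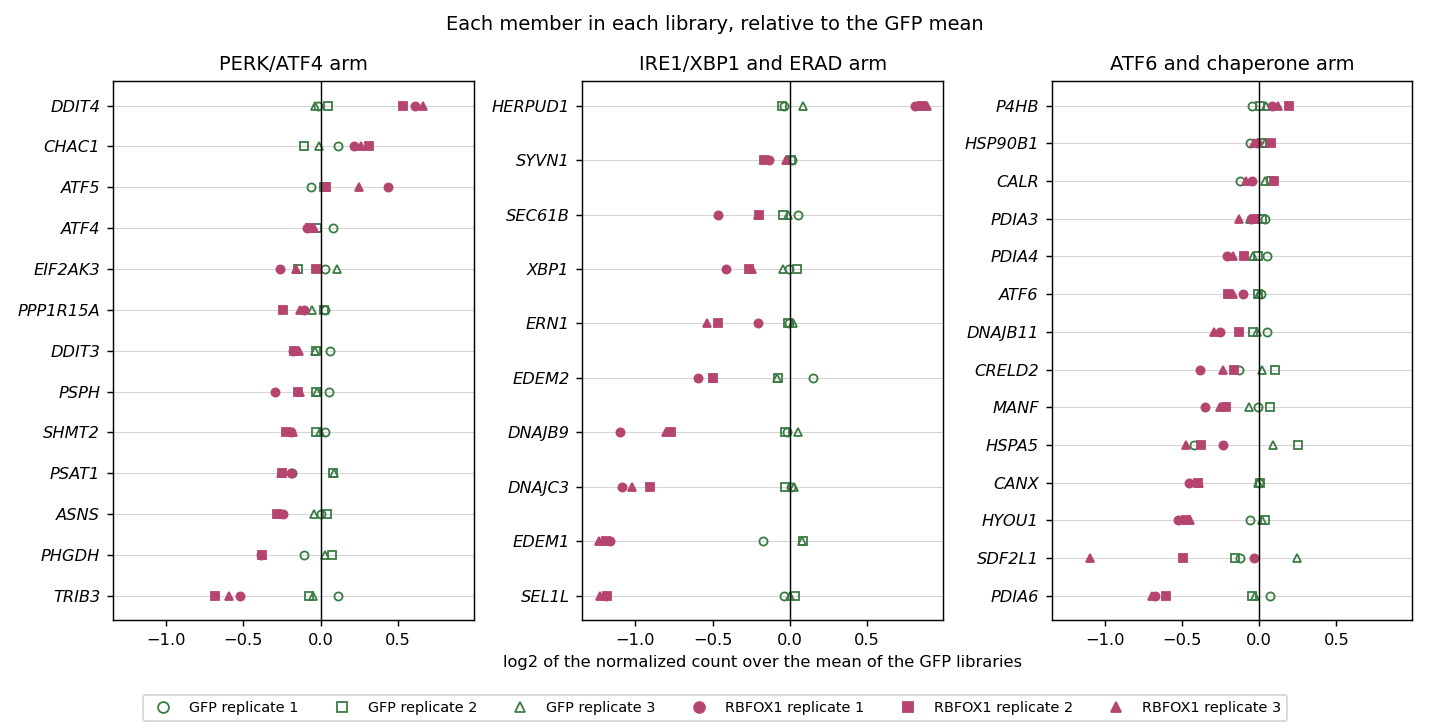
Normalized count of each member in each library over the mean of its 3 GFP libraries (x axis, log2), by arm. Open green symbols are GFP replicates and filled red symbols RBFOX1 replicates. The red symbols lie left of 0 for most genes and far right of it for HERPUD1 and DDIT4, and GFP replicate 1 of HSPA5 lies among the red symbols, at -0.42.

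In the IRE1/XBP1 and ERAD arm, the sensor and its target factor were both lower in RBFOX1 cells. ERN1, which encodes IRE1 (ENSG00000178607, chromosome 17, 64039080 to 64130819, minus strand of GRCh38), had 244, 243 and 248.6 normalized counts in GFP libraries and 212, 178 and 169 in RBFOX1 libraries. The RBFOX1 libraries lay below the GFP libraries, which had an SD of 3.02, and the log2 fold change was -0.42 ± 0.0967 (SE, adjusted p = 0.00116). It was the least abundant member for its transcript length. XBP1 (ENSG00000100219, chromosome 22, 28794555 to 28800597, minus strand), the factor whose mRNA IRE1 splices, had 1308, 1358 and 1272 normalized counts in GFP and 985, 1094 and 1107 in RBFOX1 libraries. The groups did not overlap and XBP1 had a log2 fold change of -0.30 ± 0.0583 (SE, adjusted p = 0.000252). These counts hold the spliced and the unspliced form together.

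The genes of the arm with the widest fall were SEL1L, EDEM1, DNAJC3 and DNAJB9. SEL1L (ENSG00000071537, chromosome 14, 81471547 to 81533853, minus strand), the membrane adaptor that holds the HRD1 ubiquitin ligase complex together, had 3369, 3544 and 3457 normalized counts in GFP and 1516, 1521 and 1477 in RBFOX1 libraries. The replicates of each group were close together and the groups far apart, with RBFOX1 cells at 0.435 of the GFP level, and the log2 fold change was -1.20 ± 0.0489 (SE, adjusted p = 7.64e-14). EDEM1 (ENSG00000134109, chromosome 3, 5187646 to 5219958, plus strand), a mannosidase-like protein that marks misfolded glycoproteins for degradation, had 3283, 3928 and 3921 in GFP and 1656, 1631 and 1574 in RBFOX1 libraries. GFP replicate 1 was the lowest of its group, though far above every RBFOX1 library, and EDEM1 had a log2 fold change of -1.19 ± 0.0635 (SE, adjusted p = 4.41e-12). DNAJC3 (ENSG00000102580, chromosome 13, 95677139 to 95794988, plus strand), also called p58IPK, is a co-chaperone of the ER lumen that can inhibit PERK. It had 2054, 1996 and 2079.5 normalized counts in GFP and 961, 1092 and 1007 in RBFOX1 libraries, a log2 fold change of -0.998 ± 0.0561 (SE, adjusted p = 1.06e-11). DNAJB9 (ENSG00000128590, chromosome 7, 108569867 to 108574850, plus strand), or ERdj4, is a J-domain partner of the chaperone BiP and a classical XBP1 target. It went from 491, 486 and 516 in GFP to 232, 292 and 286 in RBFOX1 libraries, a log2 fold change of -0.86 ± 0.0835 (SE, adjusted p = 4.05e-08). In RBFOX1 cells DNAJC3 was thus at 0.501 and DNAJB9 at 0.551 of the GFP level.

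EDEM2, the mannosidase that starts mannose trimming (ENSG00000088298, chromosome 20, 35115364 to 35147336, minus strand), had 902, 768 and 765 normalized counts in GFP and 539, 575 and 576 in RBFOX1 libraries. GFP replicate 1 stood above the other two, and all 3 RBFOX1 libraries lay below the GFP libraries, with a log2 fold change of -0.53 ± 0.0732 (SE, adjusted p = 4.63e-06). SEC61B, a subunit of the channel through which proteins enter the ER, had a log2 fold change of -0.28 ± 0.0649 (SE, adjusted p = 0.00137). SYVN1, the HRD1 ligase that SEL1L holds, had 159, 158 and 155 normalized counts in GFP and 143, 139.9 and 154 in RBFOX1 libraries. These values did not overlap, but they differed by so little that SYVN1 did not pass the threshold, with a log2 fold change of -0.10 ± 0.102 (SE, adjusted p = 0.443). SYVN1 shares 130 bases of exon on the same strand with FAU, and reads within them could not be assigned to either gene by the counting.

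HERPUD1 was the exception of the arm and the member with the largest rise. It encodes an ER membrane protein of the HRD1 complex that is raised by ER stress and then degraded quickly (ENSG00000051108, chromosome 16, 56932142 to 56944864, plus strand). It had 2026, 2009 and 2214 normalized counts in GFP and 3646, 3763 and 3848 in RBFOX1 libraries. Every RBFOX1 library was far above every GFP library, a 1.80-fold difference with a log2 fold change of 0.85 ± 0.0513 (SE, adjusted p = 3.11e-11). The arm thus held a ligase complex of which the adaptor SEL1L was lower and HERPUD1 higher.

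**Figure D3:**
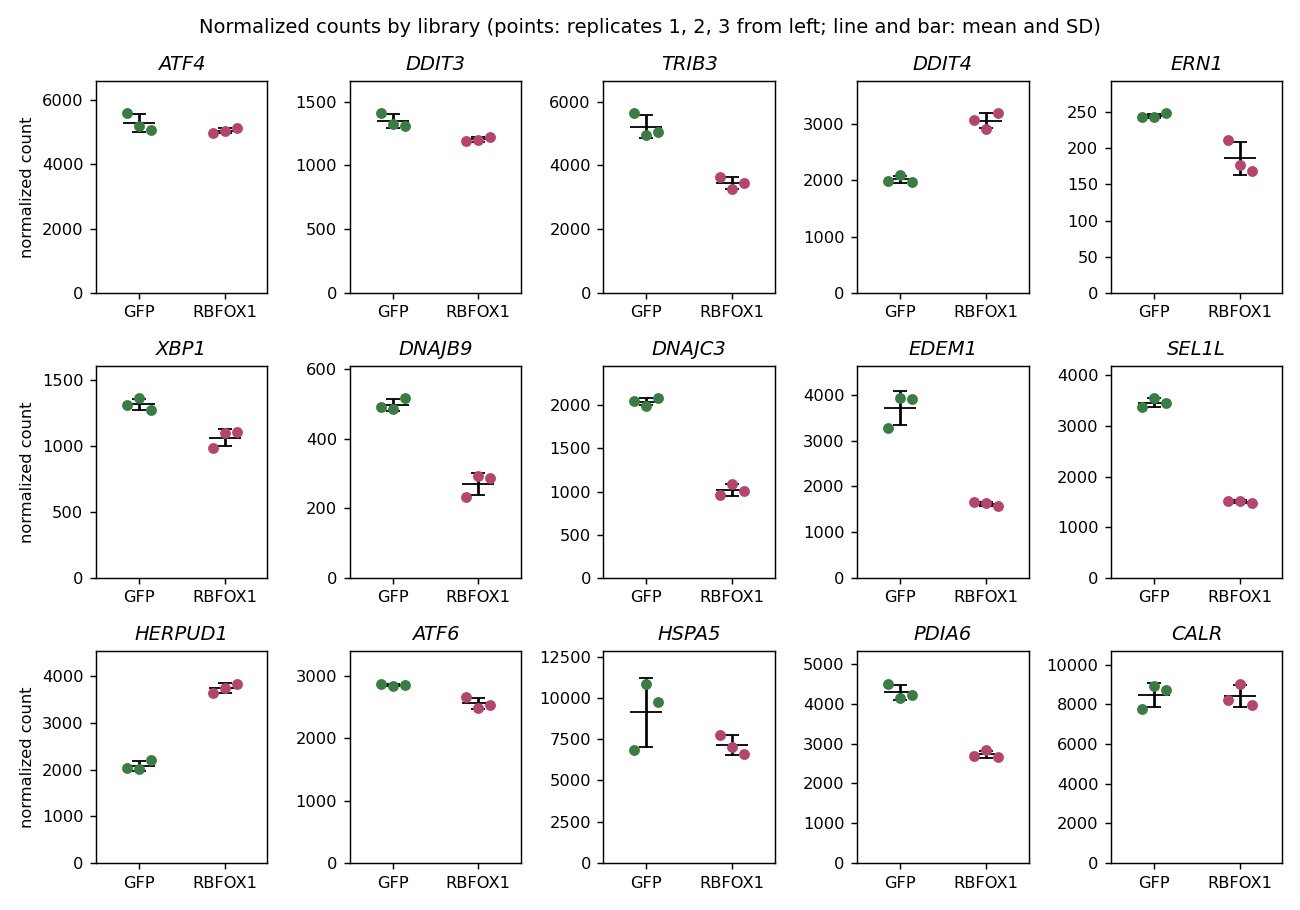
Normalized counts of 15 members in each library (y axis from 0), with replicates 1, 2 and 3 from left to right, the mean as a line and the SD as a bar (n = 3 per group). GFP and RBFOX1 points are apart for SEL1L, EDEM1, DNAJC3, DNAJB9, TRIB3, PDIA6, DDIT4 and HERPUD1, and mixed for HSPA5 and CALR.

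RBFOX1 binds the hexamer TGCATG, and 6 of the 10 genes of the arm have it in the 3′ UTR of their canonical transcript (GENCODE release 44, GRCh38). Sites of the 6 genes are shown, since they include the 4 genes of the arm with the widest fall and the gene that rose. The coordinates are those of the hexamer, which is in capitals within 30 bases of the transcript strand.
SEL1L, chr14:81473290-81473295: tccaatgttgtgTGCATGaaaaggattcct
SEL1L, chr14:81473801-81473806: gttttggaagtaTGCATGcaggcctataaa
EDEM1, chr3:5217806-5217811: attacacacacaTGCATGcatgcacacacg
EDEM1, chr3:5217810-5217815: cacacacatgcaTGCATGcacacacgagca
DNAJC3, chr13:95791547-95791552: aaatctttagtgTGCATGtgtttgcacctc
DNAJB9, chr7:108573443-108573448: tattttgacaagTGCATGatttcactttaa
DNAJB9, chr7:108573750-108573755: ctaattcaaagtTGCATGttctatgacatc
ERN1, chr17:64040537-64040542: taaggttttgtgTGCATGcgattcagttat
ERN1, chr17:64043358-64043363: actggtcagctaTGCATGctggcaggtggg
HERPUD1, chr16:56943568-56943573: ggccttaggtgtTGCATGtctatgcttgag
HERPUD1, chr16:56943609-56943614: aatgtgtgtgtcTGCATGtgtgtttgtaca
The 2 sites of EDEM1 overlap by 2 bases. Of the 6 genes, 5 fell and HERPUD1, with 2 sites, rose, so that a site was present in genes of both directions. A site was found in none of the 13 PERK/ATF4 genes and in 2 of the 14 chaperone genes, ATF6 and PDIA3, giving 8 of 37 members (21.6%) against 36.5% of 14049 protein-coding genes tested. The 3′ UTRs of the arms differ in length, with a median of 1535.5 bases in the IRE1/XBP1 and ERAD arm, 698 in the PERK/ATF4 arm and 789 in the chaperone arm, compared with 1298 for the protein-coding genes tested. The 8 members with a site had 6 genes lower and 1 higher with a median log2 fold change of -0.64, and the 29 without had 18 lower and 4 higher with a median of -0.23. Of all genes averaging at least 50 normalized counts, 33.4% were lower and 30.4% higher, and this share was not taken for genes with a site. Of the 8 members, 6 belong to the IRE1/XBP1 and ERAD arm, so that site, arm and length of the 3′ UTR cannot be told apart here. A match of letters does not show binding, and binding was not measured in these libraries.

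In the PERK/ATF4 arm the kinase and its factor did not pass the threshold, while all 11 other genes of the arm did, in both directions. EIF2AK3, which encodes PERK (ENSG00000172071, chromosome 2, 88556741 to 88691518, minus strand), had 429, 381 and 452 normalized counts in GFP and 350.1, 412 and 376 in RBFOX1 libraries, which overlapped, and a log2 fold change of -0.14 ± 0.0828 (SE, adjusted p = 0.170). ATF4 (ENSG00000128272, chromosome 22, 39519695 to 39522683, plus strand), whose amount is set largely at translation, had 5596, 5195 and 5065 in GFP and 4968, 5048 and 5125 in RBFOX1 libraries. These overlapped as well, with a log2 fold change of -0.067 ± 0.0492 (SE, adjusted p = 0.292). DDIT3, which encodes CHOP (ENSG00000175197, chromosome 12, 57516588 to 57521737, minus strand), had 1408, 1321 and 1312 normalized counts in GFP and 1192, 1195 and 1221 in RBFOX1 libraries. The RBFOX1 libraries lay below the GFP libraries by a narrow margin, and DDIT3 had a log2 fold change of -0.17 ± 0.0539 (SE, adjusted p = 0.0160). That call was lost with DESeq2 (adjusted p = 0.0525), with scaling by summed counts (0.0894) and without RBFOX1 replicate 1 (0.0513) or 2 (0.0580).

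TRIB3 and DDIT4 moved most, and in opposite directions. TRIB3 (ENSG00000101255, chromosome 20, 362835 to 397559, plus strand), a pseudokinase raised by ATF4 and CHOP that in turn restrains them, had 5631, 4958 and 5050.2 normalized counts in GFP and 3637, 3243 and 3453 in RBFOX1 libraries. The groups were well apart and TRIB3 had a log2 fold change of -0.60 ± 0.0566 (SE, adjusted p = 2.51e-08). DDIT4 (ENSG00000168209, chromosome 10, 72273919 to 72276036, plus strand), also called REDD1, an inhibitor of mTORC1, had 1998, 2095 and 1974 in GFP and 3085, 2923 and 3197 in RBFOX1 libraries. Here too the groups were well apart, with the RBFOX1 libraries above, a log2 fold change of 0.60 ± 0.0509 (SE, adjusted p = 5.17e-09). CHAC1 (ENSG00000128965, chromosome 15, 40952962 to 40956512, plus strand), an enzyme that degrades glutathione, had 649, 559 and 596 in GFP and 698, 747 and 722 in RBFOX1 libraries and likewise did not overlap, with a log2 fold change of 0.26 ± 0.0685 (SE, adjusted p = 0.00377). ATF5 (ENSG00000169136, chromosome 19, 49928702 to 49933935, plus strand), a factor related to ATF4, had 722, 766 and 772 normalized counts in GFP and 1018, 770.5 and 894 in RBFOX1 libraries. RBFOX1 replicate 2 lay within the GFP range, and the log2 fold change of 0.24 ± 0.0782 (SE, adjusted p = 0.0165) no longer passed without RBFOX1 replicate 1 (adjusted p = 0.107) or 3 (0.0564). PPP1R15A, the GADD34 subunit that leads eIF2α dephosphorylation and so ends the translational block, had a log2 fold change of -0.16 ± 0.0606 (SE, adjusted p = 0.0322). It lost the call in 8 of 13 alternatives, with an adjusted p of 0.109 with DESeq2, 0.149 with scaling by summed counts, 0.105 on thinned counts and 0.0617 with a replicate block. Leaving out GFP replicate 1 or 2 gave 0.0578 and 0.0715, and leaving out RBFOX1 replicate 2 or 3 gave 0.185 and 0.0683.

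The enzymes of serine, glycine and asparagine synthesis, which ATF4 raises when amino acids run short, were lower together. All 5 passed, with a median log2 fold change of -0.23, against -0.11 for the other 8 genes of the arm, a division made after the values were seen. Of all genes averaging at least 50 normalized counts, 63.8% passed and 33.4% were lower. PHGDH (ENSG00000092621, chromosome 1, 119648411 to 119744218, plus strand), the entry enzyme of serine synthesis, had 3233, 3659.8 and 3545 normalized counts in GFP and 2663, 2678 and 2671 in RBFOX1 libraries. Its RBFOX1 libraries hardly differed from each other, with an SD of 7.59, and lay below all GFP libraries, with a log2 fold change of -0.38 ± 0.0520 (SE, adjusted p = 4.16e-06). ASNS (ENSG00000070669, chromosome 7, 97851677 to 97872542, minus strand), asparagine synthetase, had 4959, 5109 and 4813 in GFP and 4184, 4087 and 4126 in RBFOX1 libraries and a log2 fold change of -0.26 ± 0.0462 (SE, adjusted p = 8.05e-05). PSAT1 and PSPH, the next steps of serine synthesis, and SHMT2, which turns serine into glycine in mitochondria, had log2 fold changes of -0.23, -0.19 and -0.20 (adjusted p = 0.00393, 0.00705 and 0.00120). In each of the 5 genes all RBFOX1 libraries lay below all GFP libraries, where 53.4% of all genes tested had groups that did not overlap. PSPH no longer passed without RBFOX1 replicate 1 (adjusted p = 0.0536), and its pseudogene PSPHP1 held 1237 counts, 9.36% of those of PSPH, so that reads may have been split between them. PSPHP1 was higher in RBFOX1 cells, with a log2 fold change of 0.49 (adjusted p = 0.00227), and its part in the fall of PSPH was not tested.

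ATF4 with its partners binds the CARE element, written here as TGATGNAA. It was searched on both strands in RefSeq promoters from 250 bases before to 50 after the start (GRCh38.p14), which were at hand for 34 of the 37 members (PSPH, SHMT2 and PDIA3 had no entry). It was found in ASNS and CHAC1 of the arm and in HERPUD1, against 1.82% of 11329 promoters of protein-coding genes tested. The sites are printed for these genes because they moved in different directions, with the fixed letters in capitals on the gene's strand and the coordinates of the motif.
ASNS, chr7:97872469-97872476: aggcaTGATGaAActtcc
CHAC1, chr15:40953262-40953269: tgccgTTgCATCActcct
HERPUD1, chr16:56931966-56931973: gcgggTTgCATCAgcccg
The site of ASNS is read on the gene's strand and the other two on the opposite strand. ASNS was lower while CHAC1 and HERPUD1 were higher in RBFOX1 cells.

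In the ATF6 and chaperone arm, the changes were smaller and 5 of the 14 genes did not pass. ATF6 itself (ENSG00000118217, chromosome 1, 161766298 to 161977574, plus strand) had 2880.0, 2844 and 2853 normalized counts in GFP and 2663, 2482 and 2540.3 in RBFOX1 libraries, with the RBFOX1 libraries below. Its log2 fold change of -0.16 ± 0.0478 (SE, adjusted p = 0.00909) no longer passed with scaling by summed counts (adjusted p = 0.0724) or without RBFOX1 replicate 2 (0.0591) or 3 (0.0520). HSPA5, which encodes BiP, the chaperone that holds the 3 sensors inactive (ENSG00000044574, chromosome 9, 125234853 to 125241382, minus strand), was the least even of the members in GFP cells. It had 6819, 10873 and 9728 normalized counts in GFP and 7776, 7031 and 6579 in RBFOX1 libraries. The groups overlapped, since GFP replicate 1 lay far below the other GFP libraries and below RBFOX1 replicates 1 and 2, and the coefficient of variation was 22.9% in GFP and 8.48% in RBFOX1 libraries. HSPA5 had a log2 fold change of -0.36 ± 0.107 (SE, adjusted p = 0.00942), and of -0.53 (adjusted p = 1.44e-08) without GFP replicate 1. It did not pass with DESeq2 (adjusted p = 0.173), without GFP replicate 2 (0.0743) or without RBFOX1 replicate 3 (0.0722).

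HYOU1, DNAJB11 and MANF, which work with BiP, were lower, while SDF2L1 and CRELD2 did not pass. HYOU1 (ENSG00000149428, chromosome 11, 119044188 to 119057227, minus strand), the large ER chaperone that also recharges BiP with ATP, had 2943, 3149.5 and 3106 normalized counts in GFP and 2133, 2205 and 2248 in RBFOX1 libraries. The groups were apart, with a log2 fold change of -0.48 ± 0.0493 (SE, adjusted p = 9.10e-08). DNAJB11 (ENSG00000090520, chromosome 3, 186567403 to 186585800, plus strand), the J-domain protein ERdj3, had 854, 803 and 816 in GFP and 691, 753 and 673 in RBFOX1 libraries, again with the RBFOX1 libraries below. Its log2 fold change was -0.23 ± 0.0637 (SE, adjusted p = 0.00586), which lost the call without RBFOX1 replicate 3 (adjusted p = 0.0573), and it shares 451 bases of exon on the same strand with ENSG00000283149. MANF (ENSG00000145050, chromosome 3, 51385291 to 51389397, plus strand), a secreted protein that binds BiP, had 815, 858 and 781 normalized counts in GFP and 642, 706 and 686 in RBFOX1 libraries. These did not overlap, and the log2 fold change was -0.26 ± 0.0638 (SE, adjusted p = 0.00185). SDF2L1, a partner of ERdj3, was near the lower limit of measurement. It had 59, 30 and 44 unscaled counts in GFP libraries against 21, 25 and 20 in RBFOX1 libraries. After scaling the groups overlapped. RBFOX1 replicate 1, with 38.1 normalized counts, lay above GFP replicates 1 (35.8) and 2 and below GFP replicate 3 (46.4). RBFOX1 replicates 2 and 3 had 27.8 and 18.3, below all GFP libraries. SDF2L1 had a log2 fold change of -0.56 ± 0.243 (SE, adjusted p = 0.0668). It passed without a filter on low counts (adjusted p = 0.0396) and without RBFOX1 replicate 1 (0.0239). CRELD2, a secreted protein induced by ER stress, had 184, 216 and 203 normalized counts in GFP and 154, 179.9 and 171 in RBFOX1 libraries, which did not overlap, and a log2 fold change of -0.23 ± 0.102 (SE, adjusted p = 0.0725). It passed on thinned counts (adjusted p = 0.0462), with a replicate block (0.0493) and without GFP replicate 1 (0.0266).

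The lectin chaperones did not move as a pair. CANX (ENSG00000127022, chromosome 5, 179678628 to 179731641, plus strand), or calnexin, which holds glycoproteins at the ER membrane until they fold, had 25632, 25701 and 25453 normalized counts in GFP and 18711, 19461 and 19552 in RBFOX1 libraries. The GFP libraries were close together and all RBFOX1 libraries lay below them, with a log2 fold change of -0.41 ± 0.0452 (SE, adjusted p = 2.24e-07). CANX shares 253 bases of exon on the same strand with the pseudogene HMGB3P22. CALR, its soluble relative calreticulin, had 7774, 8921 and 8705 in GFP and 8189, 9042 and 7974 in RBFOX1 libraries. The groups were mixed, with a log2 fold change of -0.010 ± 0.0584 (SE, adjusted p = 0.911). HSP90B1, the ER member GRP94 of the HSP90 family, had 7408, 7802 and 7923 in GFP and 7634, 8114 and 7542 in RBFOX1 libraries, equally mixed, with a log2 fold change of 0.010 ± 0.0488 (SE, adjusted p = 0.890). The sign of these last values changed with scaling or with the libraries used.

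The protein disulfide isomerases, which form and reshuffle disulfide bonds, went in different directions. PDIA6 (ENSG00000143870, chromosome 2, 10783391 to 10837977, minus strand) had the largest fall of the arm among genes that passed, with 4511, 4159.6 and 4216 normalized counts in GFP and 2697, 2830.0 and 2654 in RBFOX1 libraries. The groups were far apart and the log2 fold change was -0.66 ± 0.04996 (SE, adjusted p = 1.11e-09). PDIA4 was lower by little, with a log2 fold change of -0.16 ± 0.0493 (SE, adjusted p = 0.0130) that no longer passed with scaling by summed counts (adjusted p = 0.0756) or without RBFOX1 replicate 1 (0.0602) or 3 (0.0625). P4HB, the founding isomerase and a subunit of collagen prolyl hydroxylase, was the gene of the arm that rose, from 5798, 5999 and 6169 in GFP to 6356, 6841 and 6528 in RBFOX1 libraries, a log2 fold change of 0.14 ± 0.0482 (SE, adjusted p = 0.0258). That call was lost without GFP replicate 2 (adjusted p = 0.0617), without RBFOX1 replicate 2 (0.107) and without RBFOX1 replicate 3 (0.0561). PDIA3, the isomerase that works with calnexin and calreticulin, had a log2 fold change of -0.070 ± 0.0488 (SE, adjusted p = 0.264), and its pseudogene PDIA3P1 held 8.40% as many counts.

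The ER stress element ERSE (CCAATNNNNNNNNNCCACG) and its shorter form ERSE-II (ATTGGNCCACG), to which ATF6 and XBP1 bind, were first described in promoters of such genes, so that their presence here is background. Within the same 300 bases ERSE was found in 6 of 34 members and 0.141% of promoters of protein-coding genes tested, and ERSE-II in 3 members and 0.0971%. The sites are shown because genes that carry them rose, fell or did not pass. Coordinates are those of the element, the fixed letters are in capitals, and the sequence is that of the gene's strand, in which some elements are read in reverse.
HSPA5, chr9:125241391-125241409: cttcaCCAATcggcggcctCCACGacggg
CANX, chr5:179698778-179698796: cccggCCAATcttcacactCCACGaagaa
CALR, chr19:12938384-12938402: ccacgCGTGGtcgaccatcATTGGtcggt
HSP90B1, chr12:103930216-103930234: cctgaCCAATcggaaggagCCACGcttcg
HSP90B1, chr12:103930321-103930339: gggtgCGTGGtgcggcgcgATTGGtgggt
XBP1, chr22:28800603-28800621: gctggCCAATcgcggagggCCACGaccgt
CRELD2, chr22:49918554-49918572: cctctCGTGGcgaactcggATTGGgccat
HYOU1, chr11:119057380-119057390: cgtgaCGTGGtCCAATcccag
HYOU1, chr11:119057274-119057284: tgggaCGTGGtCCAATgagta
SDF2L1, chr22:21642114-21642124: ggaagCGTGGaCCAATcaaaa
HERPUD1, chr16:56932025-56932035: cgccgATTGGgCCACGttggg
Of these 9 genes, HSPA5, CANX, XBP1 and HYOU1 were lower, HERPUD1 was higher and CALR, HSP90B1, SDF2L1 and CRELD2 did not pass, with a median log2 fold change of -0.30. Of the 25 members with a promoter entry and neither element, 18 were lower and 4 higher, with a median of -0.23. Of all genes averaging at least 50 normalized counts, 33.4% were lower and 30.4% higher. The search took exact letters in the first listed promoter of each gene, so that variant or more distant elements were not counted. A match of letters does not show binding.

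HERPUD1 and HYOU1 carry ERSE-II and had log2 fold changes of 0.85 and -0.48. The 250 bases before their RefSeq starts (GRCh38.p14) are printed for that contrast, on the plus strand for HERPUD1 and the minus strand for HYOU1, with ERSE-II in capitals and, in HYOU1, also TGACGTGG, the core of the XBP1-binding element, which overlaps ERSE-II.
HERPUD1, chr16:56931892-56932141: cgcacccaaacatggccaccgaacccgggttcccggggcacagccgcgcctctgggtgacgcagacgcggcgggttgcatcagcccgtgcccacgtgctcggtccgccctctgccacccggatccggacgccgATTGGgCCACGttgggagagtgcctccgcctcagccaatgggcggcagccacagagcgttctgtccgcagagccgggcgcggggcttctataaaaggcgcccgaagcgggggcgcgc
HYOU1, chr11:119057206-119057455: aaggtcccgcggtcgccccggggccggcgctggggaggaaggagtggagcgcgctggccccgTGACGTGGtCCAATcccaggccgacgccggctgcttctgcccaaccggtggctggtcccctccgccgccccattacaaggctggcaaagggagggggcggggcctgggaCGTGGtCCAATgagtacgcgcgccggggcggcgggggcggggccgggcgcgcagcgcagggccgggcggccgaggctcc
HERPUD1 also has the CARE element printed above, which lies before its ERSE-II, whereas HYOU1 has none. The core TGACGTGG was found in no other member and in 0.936% of promoters of protein-coding genes tested.

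Compared per length of the canonical transcript, the members spanned a wide range of levels. Here CPM was taken after TMM scaling, unlike the CPM given above for the arms. In GFP cells CANX had the highest level, 375 CPM per kb, followed by CALR with 321 and ATF4 with 268. The lowest were ERN1 with 2.24, SDF2L1 with 3.41, SYVN1 with 3.73 and EIF2AK3 with 6.68 on the same scale, so that 2 of the 3 sensor genes were among the least abundant members. In RBFOX1 cells CALR (318) stood above CANX (282). DDIT4 moved from rank 16 to rank 10 of the 37 and HERPUD1 from 21 to 15, while EDEM1 went from 23 to 29 and SEL1L from 25 to 30. These ranks rest on annotated transcript lengths, since the isoforms present in these cells cannot be read from counts per gene.

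**Figure D4:**
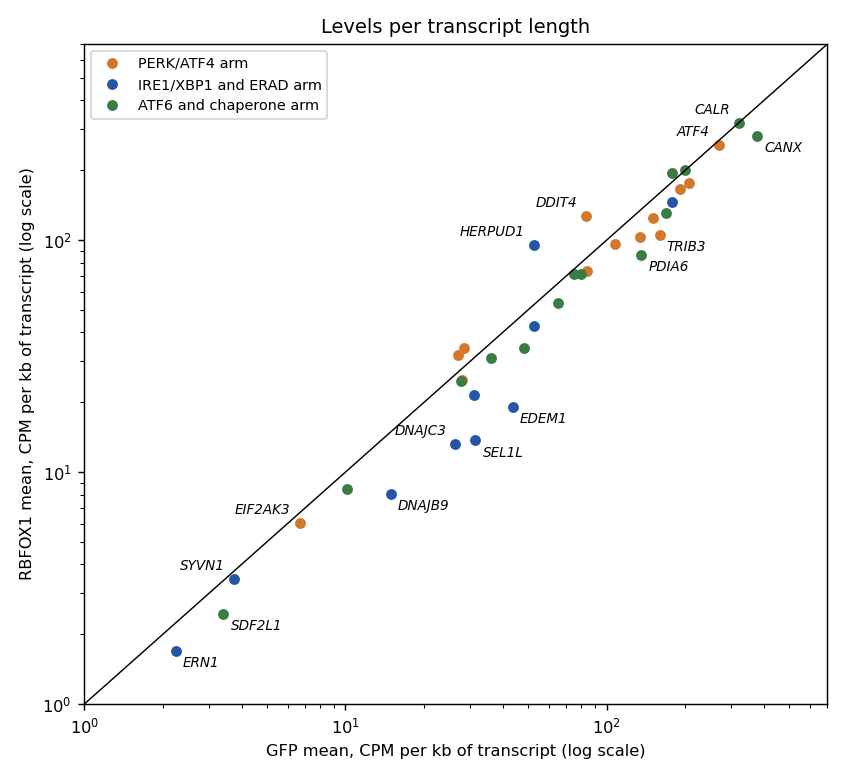
Level of each member in RBFOX1 cells (y axis) against GFP cells (x axis), in CPM (after TMM scaling) per kb of canonical transcript, both on log scales, with the line of equal levels. Points are means of 3 libraries, coloured by arm. DDIT4 and HERPUD1 lie above the line, and SEL1L, EDEM1, DNAJC3, DNAJB9, PDIA6 and TRIB3 below it.

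Further genes of the same pathways were counted from lists written by function. Of 22 further ERAD genes, 16 were lower and 2 higher, with a median log2 fold change of -0.23. ERLEC1, a lectin that reads trimmed glycans, had 1309.9 ± 47.1 (GFP) against 850.2 ± 30.8 (RBFOX1) normalized counts (SD, n = 3 each), and a log2 fold change of -0.62 ± 0.0570 (SE, adjusted p = 1.70e-08). UBXN4, which recruits the segregase VCP to the ER, and VCP itself, which pulls proteins out of the membrane, had log2 fold changes of -0.55 and -0.50 (adjusted p = 1.50e-06 and 8.15e-08). Of 36 further ER folding enzymes and chaperones tested, 19 were lower and 4 higher, with a median of -0.16. CLGN, the calnexin relative calmegin, had 90.9 ± 11.7 (GFP) against 13.9 ± 4.53 (RBFOX1) normalized counts (SD, n = 3 each) and thus a log2 fold change of -2.82 ± 0.224 (SE, adjusted p = 2.06e-09). TMX3, a membrane-bound disulfide isomerase, had a log2 fold change of -1.01, and CALU, a calcium-binding protein of the secretory pathway, of -0.92 (adjusted p = 1.92e-10 and 1.90e-12). The translocon, signal peptidase and oligosaccharyltransferase list, 24 genes that bring proteins into the ER and glycosylate them, had 8 lower and 3 higher with a median of -0.089. SSR4, SSR3 and SRPRA, of the translocon-associated complex and the signal recognition particle receptor, were those that rose, by log2 fold changes of 0.50, 0.34 and 0.33 (adjusted p = 7.48e-07, 2.43e-05 and 0.00269).

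Around eIF2, of 13 kinases, subunits, phosphatase and exchange factor genes, 5 were higher and 5 lower, with a median of 0.035. EIF2AK4, which encodes the amino acid sensor kinase GCN2, had 3108 ± 38.5 (GFP) against 1966 ± 41.3 (RBFOX1) normalized counts (SD, n = 3 each) and thus a log2 fold change of -0.66 ± 0.0474 (SE, adjusted p = 4.71e-10). PPP1R15B, the constitutive partner of the eIF2α phosphatase, had a log2 fold change of 0.31 and EIF2B2, a subunit of the exchange factor, of -0.29 (adjusted p = 3.38e-05 and 0.00388). Among 28 further ATF4 and CHOP targets, 14 were lower and 9 higher, with a median of -0.21, and 6 changed by at least 1 on the log2 scale. SLC7A11, the cystine transporter, had 6699 ± 227 (GFP) against 2197 ± 17.999 (RBFOX1) normalized counts (SD, n = 3 each) and thus a log2 fold change of -1.61 ± 0.0482 (SE, adjusted p = 7.14e-16). TNFRSF10B, the death receptor DR5 that CHOP raises, and SQSTM1, the autophagy receptor p62, had log2 fold changes of -1.51 and -1.47 (adjusted p = 9.02e-16 and 3.99e-15). Of 20 cytosolic aminoacyl-tRNA synthetases, many of which ATF4 raises, 7 were lower and 3 higher with a median of 0.0034. IARS1, KARS1 and WARS1, which charge isoleucine, lysine and tryptophan tRNA, had log2 fold changes of -0.58, 0.54 and -0.45 (adjusted p = 5.47e-09, 1.74e-08 and 9.33e-08).

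Of 12 tested genes for other ER stress sensors and processing proteases, 5 were higher and 4 lower, with a median of 0.13. BAX, a pore-forming death protein that also touches IRE1, had a log2 fold change of -1.07, CREB3L1, a factor cleaved like ATF6, of 0.71, and ATF6B, the close relative of ATF6, of -0.70 (adjusted p = 6.26e-11, 6.72e-05 and 2.01e-06). For comparison outside the ER, 14 cytosolic heat shock genes had 8 lower and 5 higher with a median of -0.17. Among them DNAJB1, a cytosolic J-domain protein, had a log2 fold change of -0.91, while BAG3 and HSPB1, a co-chaperone and a small heat shock protein, had 0.48 and 0.48 (adjusted p = 3.72e-12, 1.47e-07 and 6.67e-06). The 10 mitochondrial chaperones and proteases had 4 lower and 3 higher with a median of -0.049, and TRAP1, GRPEL1 and HSPE1, of the mitochondrial HSP90, HSP70 and HSP60 systems, had log2 fold changes of 0.34, 0.32 and -0.29 (adjusted p = 1.66e-05, 0.000211 and 0.0261). Over these 9 lists together, 85 of 179 genes tested were lower (47.5%) and 39 higher (21.8%), to be read against 22.9% and 23.7% of all genes tested. Nearly all of the 179 genes averaged at least 50 normalized counts, a level at which 33.4% of genes were lower and 30.4% higher. The share of lower genes lay near that background in the translocon list (8 of 24) and among the synthetases (7 of 20). The same held for the other sensors and proteases (4 of 12). In the eIF2 list (5 of 13) and the mitochondrial list (4 of 10) the share was only slightly higher.

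**Figure D5:**
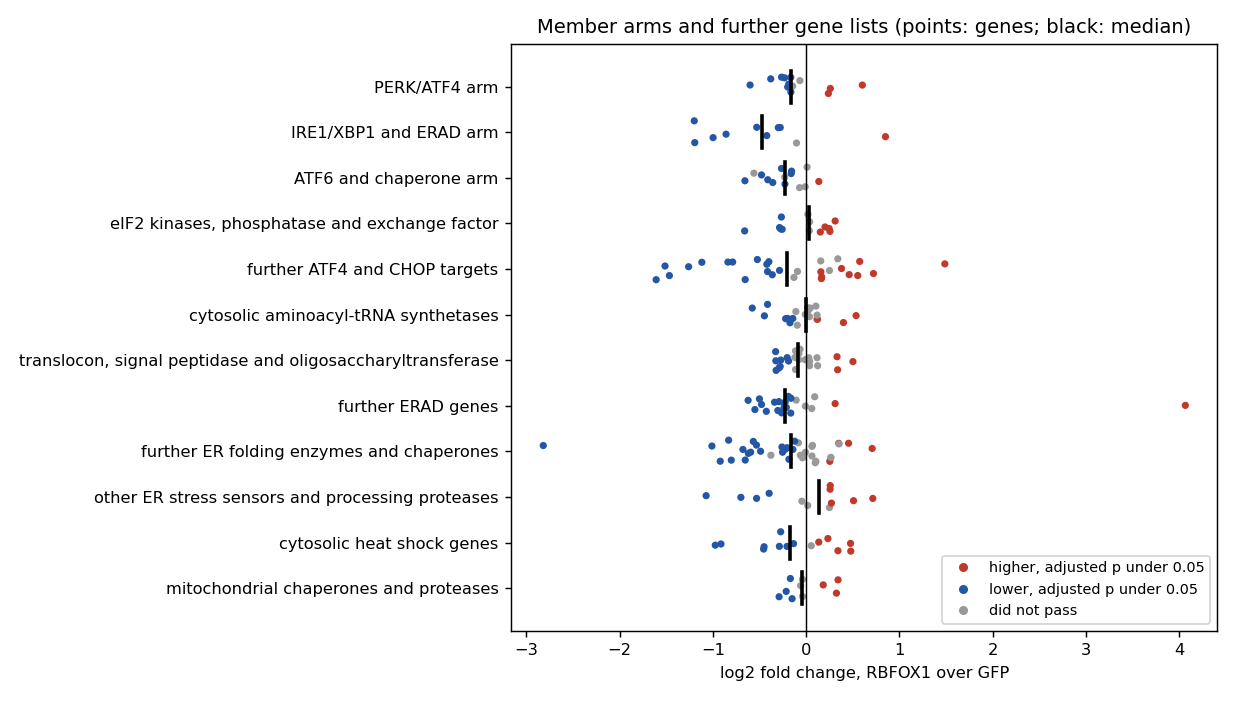
Log2 fold change of each tested gene, RBFOX1 over GFP (x axis), in the 3 member arms and the 9 further lists, with the median of each list as a black bar. Red genes passed as higher, blue genes as lower and grey genes did not pass. The median lies lowest in the IRE1/XBP1 and ERAD arm and highest, at 0.13, in the list of other sensors and proteases, and the point at 4.07 is DERL3.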

How the data were processed

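RNA was sequenced from 3 GFP and 3 RBFOX1 libraries of A172 cells as rRNA-depleted, stranded, paired-end reads. The authors used HISAT2 (GRCh38) for alignment and HTSeq-count, intersection-strict, for counting on Ensembl genes, and deposited raw counts per gene and library, with 52 to 61.9% of read pairs on genes. Ambiguous read pairs made up 8.89 to 9.35% in GFP and 6.89 to 7.94% in RBFOX1 libraries. The effect of this difference on members that overlap other genes was not tested. A deposited table of the authors' own DESeq2 comparison was not used, and the 5 lines per file that name no gene stayed out of library sizes and tests. Genes with at least 10 summed counts were scaled by TMM and compared in R 4.3.3 by the two-sided quasi-likelihood test of edgeR 4.0.16, with condition as sole term, at a Benjamini-Hochberg adjusted p under 0.05. DESeq2 (1.42.0), other scalings, filters, thinned counts, a replicate block, a fold-change minimum and omission of each replicate were alternatives. The procedure was also run on simulated counts with known changes, drawn from the means and dispersions fitted here. The simulated replicates of a group differed only in depth and random draw, so that run cannot show the effect of an uneven library such as GFP replicate 1. Precision rests on depth and on the spread of 3 libraries per group, described as biological replicates. Coordinates and symbols came from GENCODE release 44 (98.1% of identifiers matched), a later annotation than that of the counts. Members and lists were chosen with earlier results of these data known. By rule, values in every library were given for the sensors, ATF4, XBP1, DDIT3, HSPA5 and the 6 genes per arm with the largest change past the threshold, and 3 genes were named per further list, among those averaging at least 50 normalized counts. Other members with values per library were added after these were seen.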

Additional observations from a re-analysis of the deposited data

How the results depend on the processing

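Of the 29 members called, 20 kept their call and direction in all 13 alternatives, and 9 lost the call in at least 1 of them (ATF5, DDIT3, PPP1R15A, PSPH, ATF6, HSPA5, PDIA4, P4HB and DNAJB11), none with a change of sign. Counts of members higher and lower were 5 and 21 with DESeq2, 5 and 20 with scaling by summed counts, and 3 and 19 without RBFOX1 replicate 3. The cause was not tested. A minimum log2 difference of 1 in either direction left 2611 of all genes tested, 10 genes of the further lists (124 otherwise), 0 higher in each arm, and 0 lower in the PERK/ATF4, 2 in the IRE1/XBP1 and 0 in the chaperone arm. Scaling by summed counts, which raised the median of all genes by 0.0503, gave medians of -0.11 for the PERK/ATF4, -0.43 for the IRE1/XBP1 and -0.18 for the chaperone arm, and counts thinned to the smallest library gave -0.43 for the IRE1/XBP1 arm. With each replicate left out, the median ran from -0.19 to -0.14 in the PERK/ATF4, from -0.50 to -0.43 in the IRE1/XBP1 and from -0.27 to -0.19 in the chaperone arm, which had 0 to 1 genes higher and 4 to 9 lower. The log2 fold change of HSP90B1 reversed to -0.012 without GFP replicate 1 and -0.018 without RBFOX1 replicate 2, in a range of -0.018 to 0.036 with each replicate left out. That of CALR was 0.042 with scaling by summed counts, 0.0053 with edgeR's filterByExpr, and -0.063 to 0.032 with each replicate left out, positive without GFP replicate 2 (0.023) or 3 (0.014) and without RBFOX1 replicate 1 (0.016) or 3. The replicate numbers share no stated culture or batch, and the deviations of same-numbered libraries correlated at -0.0326, 0.0156 and -0.00055, with GFP replicate 1 closest to RBFOX1 replicate 3. A replicate block gave 9046 genes called, with 5 members higher and 24 lower, of which CRELD2 was new and PPP1R15A lost. Depth limits SDF2L1 most, at 20 to 59 counts.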

Other observations

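The following genes of the further lists were chosen after their values were seen. DERL3, a Derlin of secretory cells that sits beside the HRD1 ligase, went against its list. Its unscaled counts were 9, 0 and 3 in GFP replicates 1, 2 and 3 against 34, 55 and 63 in RBFOX1 replicates 1, 2 and 3, a log2 fold change of 4.07 ± 0.345 (SE, adjusted p = 5.48e-09), while its relatives DERL1 and DERL2 had -0.17 and -0.11 (adjusted p = 0.0407 and 0.176). With 0 to 9 counts of DERL3 in GFP libraries, near the lower limit of measurement, the size of its fold change is poorly known. ATF3, a stress factor downstream of ATF4, had 95.3, 137 and 114 normalized counts in GFP libraries against 212, 182 and 171 in RBFOX1 libraries, a log2 fold change of 0.72 ± 0.130 (SE, adjusted p = 0.000104), while ATF4 did not pass and DDIT3 was lower. The amino acid transporters of the ATF4 programme differed from each other, with log2 fold changes of -1.61 for SLC7A11, 0.55 for SLC7A5 and 0.16 for SLC3A2, the heavy chain that both transporters share (adjusted p = 7.14e-16, 2.60e-07 and 0.00666). The proline enzymes PYCR1 and ALDH18A1 had 0.57 and 0.38 (adjusted p = 1.56e-07 and 4.16e-06), whereas the serine enzymes of the PERK/ATF4 arm were lower. The oxidase ERO1A, which supplies disulfide isomerases with oxidizing power, had a log2 fold change of -0.84 ± 0.0708 (SE, adjusted p = 5.10e-09), and its relative ERO1B of -0.59 (adjusted p = 7.87e-05). TXNDC12, an ER thioredoxin, had 0.71 (adjusted p = 1.66e-08). In ERO1A, SLC7A11 and TXNDC12 all RBFOX1 libraries lay on the same side of all GFP libraries. Groups that did not overlap were seen in 53.4% of all genes tested.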
